A study of Homo sapiens with 18 samples.

Results

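The comparison described here is that of Lonp1 silencing under heat shock (HS). SW620 cells, an established human colon cancer line grown from a lymph node metastasis, received either siRNA against Lonp1 (siLonp1) or scrambled siRNA (scramble), and both groups were held at 42 °C for 1 h before RNA was taken. The genes are those with a CPM (counts scaled to a library of fixed size) above 1 in at least 3 of these 6 libraries, which gave 12465 of the 12832 genes that pass the same limit over all 18 libraries of the series, out of 26485 listed gene symbols. The other libraries, 3 for each siRNA, came from cells kept at 37 °C (Ctrl) or left for 1 h at 37 °C after the HS (HS+REC), and they are used here only to show where the effect of siLonp1 in HS differed. The study asked whether silencing of Lonp1 alters the transcriptional response to heat. The labels give no difference in genotype between the groups. The methods give 3 independent biological replicates, 100 nM siRNA for 72 h and a pair of Lonp1 siRNAs, and which of these was used for sequencing is not given in the sources used here. A change in 1 cell line by an siRNA that was not set against another one cannot be assigned to LONP1 itself rather than to another transcript that the siRNA may bind.

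LONP1 is an ATP-dependent protease of the mitochondrial matrix, encoded in the nucleus, which degrades oxidised and misfolded proteins, helps them to fold and takes part in the maintenance of mtDNA. Heat unfolds proteins, and cells answer through heat shock factor 1 (HSF1), which binds heat shock elements and drives the genes of the HSP70, HSP90, HSP110 and J-domain chaperones. Loss of mitochondrial function is known in other systems to act on nuclear genes through the integrated stress response, in which ATF4 raises genes of amino acid and one-carbon metabolism.

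The 6 HS libraries held between 30815860 and 43383858 counts, with the lowest total in HS scramble replicate 3. Scaling factors (TMM) were between 1.03 and 1.04 for HS scramble and between 0.964 and 0.971 for HS siLonp1. Of the markers used to check the cell type, those of colon epithelium summed to between 9850 and 10300 CPM with scramble and between 11600 and 12100 CPM with siLonp1. Those of blood cells summed to between 8.64 and 10.9 and between 4.94 and 5.21 CPM, with PTPRC, CD3E, MS4A1 and HBB at 0, and those of fibroblasts to between 42.3 and 46.2 and between 26.3 and 30.6 CPM, with COL3A1 at 0. Single genes carried these sums and did not move together: LYZ was lower and CD14 higher with siLonp1, LUM lower and PDGFRB higher, and among epithelial markers KRT8, KRT18 and KRT19 were higher and CDX2 and CDH17 lower. Endothelial markers were at or below 1.26 CPM in sum. These are RNA levels of whole cultures, in which fewer cells of a type and less RNA per cell cannot be told apart.

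LONP1 itself (chr19:5691834-5720452 in RefSeq, GRCh38.p14) was the transcript that the siRNA targets. In HS it had 219, 227 and 197 CPM in the 3 scramble libraries and 11.8, 11.5 and 11.8 CPM in the 3 siLonp1 libraries. The log2 fold change was -4.19 ± 0.08 (SE), which is 18.3-fold lower, with an FDR of 6.38e-21 by edgeR's quasi-likelihood test. The fall was larger than that by siLonp1 in Ctrl, with an interaction of -0.76 ± 0.11 on the log2 scale (FDR 0.000468), and larger than that in HS+REC, with -1.18 ± 0.11 (FDR 1.18e-06). The transcript of HSF1 had 98.0, 99.1 and 91.2 CPM with scramble and 71.7, 72.4 and 70.6 CPM with siLonp1, a fall of -0.43 ± 0.07 on the log2 scale (FDR 2.44e-05).

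In heat-shocked cells, silencing of Lonp1 moved many transcripts by a little and a few by a lot. Under a limit of 0.05 for the FDR and of 2 for the fold change, 295 genes (2.37% of those tested) were raised by siLonp1 and 178 (1.43%) were lowered, and in each of these 473 genes the 3 siLonp1 libraries lay outside the range of the 3 scramble libraries. Of the 12465 genes, 61.2% had groups that did not overlap. Without a limit on the fold change, 3532 genes (28.3%) rose and 3359 (26.9%) fell, 55.3% in all, and 74.7% of these differed by less than 1.5-fold. Of the 2-fold calls, 21 rises and 18 falls were larger than 4-fold. The split depended on the scaling: with library size alone, 235 genes were raised and 252 lowered, and 2503 rose and 4664 fell at any fold. The 295 and the 178 genes include 49 and 51, respectively, that passed the CPM limit in the libraries of 1 group alone and so had to differ, and just inside and just outside that limit lay BGN and SLC1A7, with a third-highest value of 1.0019 and 0.9942 CPM.

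**Figure D1:**
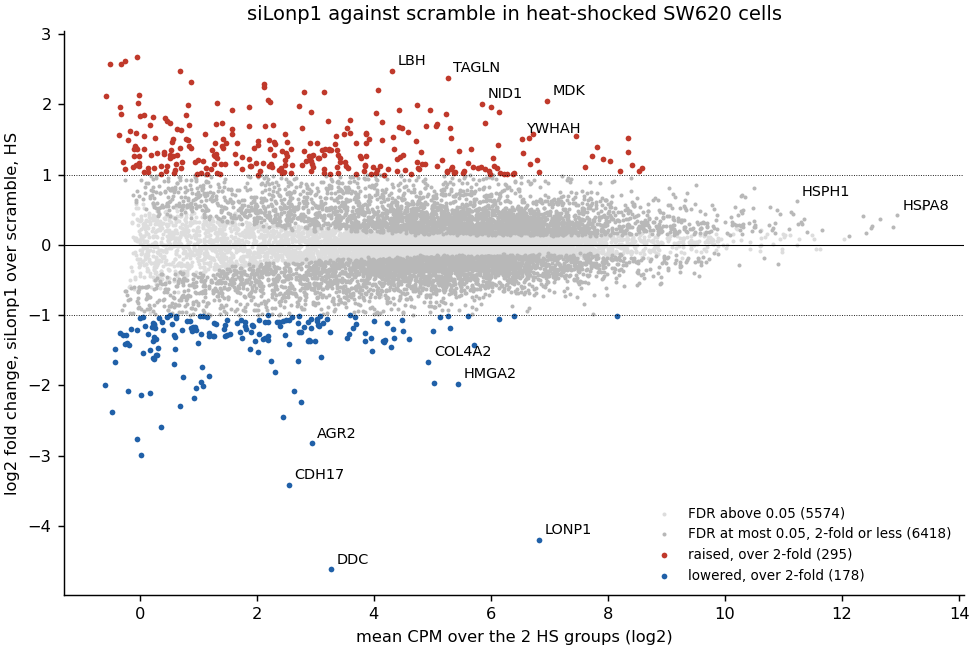
Each point is 1 of the 12465 genes, with the log2 of its mean CPM over the HS groups on the x axis and the log2 fold change of siLonp1 over scramble in HS on the y axis. Dotted lines mark 2-fold. The 295 raised (red) and 178 lowered (blue) genes lie outside them, LONP1 and DDC lie lowest, and HSPH1 and HSPA8 are among the genes with a high mean and a rise of less than 2-fold.

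Among the largest falls besides LONP1 were those of DDC, CDH17 and AGR2. DDC, the aromatic L-amino acid decarboxylase, had 17.4, 16.9 and 21.4 CPM with scramble and 0.798, 0.579 and 0.881 CPM with siLonp1. CDH17, the cadherin of liver and intestine, had 12.6, 8.77 and 10.7 CPM and 1.004, 0.947 and 1.06 CPM. AGR2, a protein disulfide isomerase of mucus-secreting cells, had 12.6, 12.6 and 15.3 CPM and 2.14, 1.84 and 1.71 CPM. In all 3 genes the scramble libraries were several times above each of the siLonp1 libraries, with log2 fold changes of -4.61 ± 0.17, -3.41 ± 0.14 and -2.82 ± 0.12 and FDRs of 1.13e-15, 8.89e-15 and 8.29e-15. DDC passed the CPM limit through the scramble libraries alone and so had to differ, and CDH17 was below the limit in some libraries. TSPAN8, a tetraspanin of the gut, fell by 2.23 on the log2 scale, ANKS4B, a scaffold of the brush border, by 2.08, and PPFIBP2, a liprin, by 2.45.

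Large falls were also found for HMGA2 and COL4A2. HMGA2, an architectural chromatin protein of embryonic and tumour cells, had 70.4, 70.2 and 66.3 CPM with scramble and 17.6, 17.3 and 17.80 CPM with siLonp1, a log2 fold change of -1.97 ± 0.08 (FDR 4.5e-15). COL4A2, a chain of the collagen of basement membranes, had 47.8, 45.8 and 45.5 CPM and 14.8, 13.9 and 15.3 CPM, with -1.66 ± 0.06 (FDR 4.5e-15). Both groups were tight in both genes. CPLX2, a regulator of SNARE-driven exocytosis, fell by 1.97 on the log2 scale, RIN2, an exchange factor of Rab5, by 1.51, the homeobox gene HOXA9 by 1.66, the J-domain gene DNAJC27 by 1.52, and KLRC2, C14orf105 and LINC00999 by 1.598, 1.81 and 1.65, respectively. Among genes that fell to under 1 CPM were CYP1A1, the cytochrome induced by aryl hydrocarbons, with 3.63, 2.65 and 3.03 CPM and 0.695, 0.789 and 0.579 CPM, and CAPN8, a calpain of the stomach and gut, with 3.52, 3.29 and 3.32 CPM and 1.05, 0.658 and 0.806 CPM. MTUS1, a microtubule-associated protein, and LINC01206 fell by 1.86 and 1.94.

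TAGLN, MDK and NID1 were among the largest rises. TAGLN, the actin-binding protein transgelin, had 13.2, 11.4 and 12.7 CPM with scramble and 70.6, 57.6 and 65.9 CPM with siLonp1. MDK, the heparin-binding growth factor midkine, had 46.1, 48.3 and 51.3 CPM and 207, 204 and 192 CPM. NID1, which links laminin and collagen in basement membranes, had 24.4, 23.6 and 20.7 CPM and 87.1, 94.6 and 95.02 CPM. These rose by 2.38 ± 0.09, 2.05 ± 0.08 and 2.01 ± 0.08 on the log2 scale (FDRs 4.5e-15, 3.28e-15 and 1.21e-14). LBH, a transcriptional regulator, rose by 2.48 from 5.99, 5.81 and 6.39 CPM, and NGFR, the low-affinity receptor of neurotrophins, by 2.20 from 6.42, 6.39 and 5.09 CPM. The keratins KRT17 and KRT81 rose by 2.25 and 1.99, with KRT81 close in sequence to other hair keratins, so that reads may be shared. Genes first known from other lineages also rose from low levels, among them LAPTM5, a lysosomal protein of blood cells, by 2.17, ARHGDIB, an inhibitor of small GTPases in leukocytes, by 1.97, and TNNC1, the troponin C of heart and slow muscle, by 2.02. PALM, SSC4D and MEIS3 rose by 2.29, 2.07 and 2.03.

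Genes whose scramble mean was under 1 CPM and that rose past 2-fold included the adhesion gene MDGA1, the long noncoding RNA MIAT, the p53-induced TP53INP1, the potassium channel KCNH6 and the ligand WNT7B. WNT7B, for example, had 0.631, 1.13 and 0.759 CPM with scramble and 3.04, 2.89 and 2.37 CPM with siLonp1. The RNAs of RNase P and of RNase MRP, RPPH1 and RMRP, are short and without a poly(A) tail, and they rose as well. RPPH1 had 1.94, 2.08 and 3.79 CPM with scramble and 14.1, 10.5 and 9.74 CPM with siLonp1, and RMRP 1.65, 1.13 and 1.74 and 9.26, 4.23 and 3.95 CPM. Over the other 12 libraries RPPH1 lay between 0.122 and 3.55 CPM and RMRP between 0.292 and 2.88 CPM, so the 3 HS siLonp1 libraries stood above the rest in both. The methods name a kit for stranded mRNA, whereas the labels name both stranded mRNA and total RNA for all libraries alike, so whether RNAs without a poly(A) tail were kept by design is not settled. What their part is in other results was not tested.

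**Figure D2:**
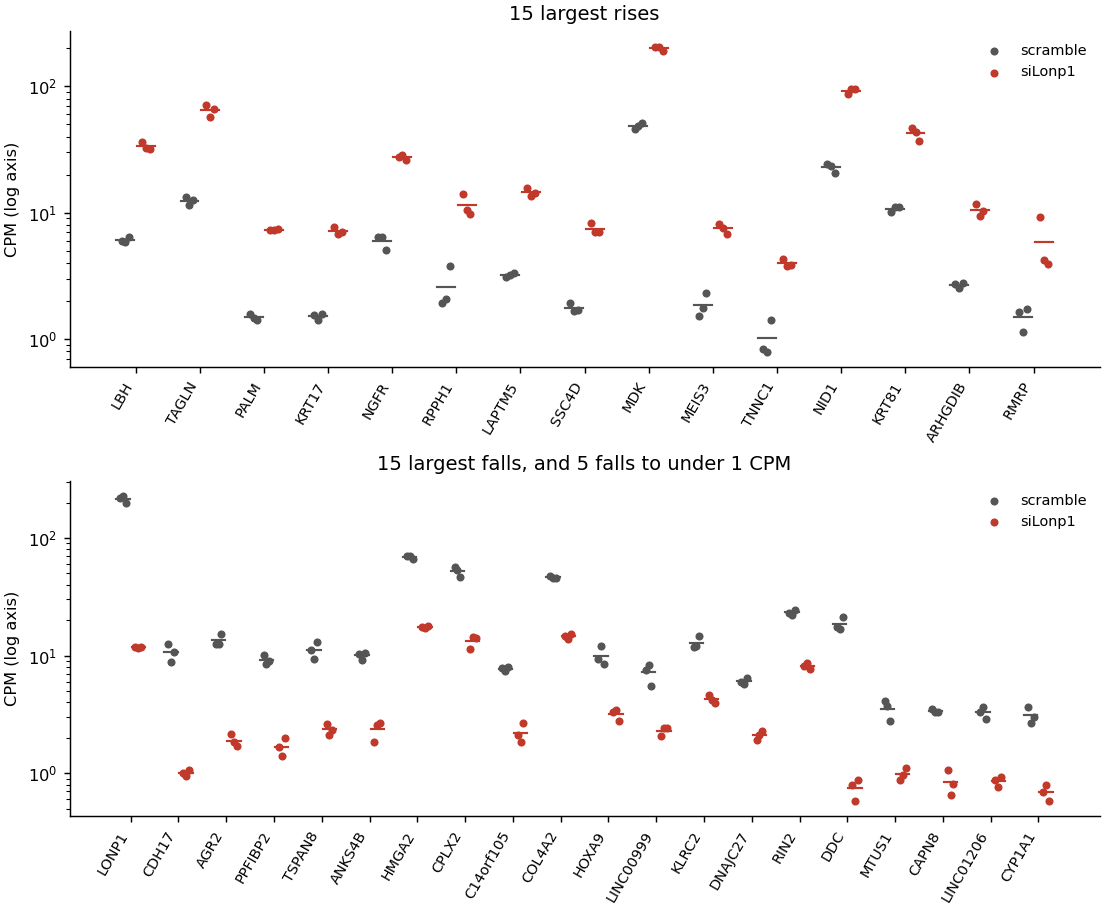
CPM (log axis) of the genes with the largest rises (upper panel) and falls (lower panel) by siLonp1 in HS, 1 point per library with scramble in grey and siLonp1 in red, and a line at each group's mean. In every gene shown the groups do not overlap, which the rule for naming them required, and RPPH1 and RMRP show the widest spread among the rises.

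For lists of genes, the share of members that rose or fell is set beside that of all genes tested (28.3% and 26.9%) and the list's median beside their median log2 fold change of 0.002. No test of the lists themselves was made.

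Among genes of intestinal differentiation, 7 of the 11 tested members (63.6%) fell, 2 rose and 2 did not pass the test, with a median log2 fold change of -1.38. Of the 34 listed genes, 11 passed the CPM limit, and 4 of these (CDH17, FABP1, CEACAM5 and CEACAM6) did so through the scramble libraries, where they are high, so that the limit itself favours a fall. Of the 7 members above the limit in all 6 HS libraries, 3 fell and 2 rose, with a median of -0.004. CDX2, the homeobox regulator of intestinal identity, had 24.97, 26.2 and 27.0 CPM with scramble and 10.0, 10.0 and 9.97 CPM with siLonp1, a log2 fold change of -1.38 ± 0.09 (FDR 4.18e-11). FABP1, a fatty acid-binding protein of enterocytes, fell by 2.14, the nuclear receptor HNF4A by 0.55, and CEACAM5 and CEACAM6, which are close in sequence, by 1.48 and 1.46. Against this, TFF3, a trefoil factor of goblet cells, rose by 0.71 and CEACAM1 by 0.26, while MUC13 (0.02) and VIL1, encoding the brush border protein villin, did not pass the test. Of 20 tested genes of epithelial adhesion, 9 rose and 3 fell, but 5 and 6 with library size alone, with E-cadherin (CDH1) at 103, 101 and 103 CPM with scramble and 153, 163 and 157 CPM with siLonp1, a rise of 0.62 ± 0.06. CLDN1, JUP and CLDN4 rose by 0.64, 0.59 and 0.48.

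WNT signalling maintains the stem cells of the intestine and is active in most colon cancers, and its targets include its own inhibitors. Of 22 tested targets, 15 (68.2%) fell, 4 rose and 3 did not pass the test, with a median of -0.44. LGR5, the R-spondin receptor of intestinal stem cells, had 51.5, 52.4 and 50.6 CPM with scramble and 23.9, 25.9 and 26.8 CPM with siLonp1, a change of -1.01 ± 0.10 (FDR 1.72e-08). ASCL2, the stem cell transcription factor, fell by 0.96, and the WNT effector LEF1 by just under 2-fold. The feedback genes AXIN2, RNF43 and ZNRF3 fell by 0.57, 0.59 and 0.39, and SOX9 by 0.61. The secreted inhibitor DKK1 went the other way, from 16.7, 15.05 and 17.0 CPM to 65.9, 53.6 and 57.5 CPM, a rise of 1.86 ± 0.09 (FDR 1.54e-13), and NKD1, EPHB3 and CCND1 also rose, by 0.47, 0.29 and 0.23. The siLonp1 effect was more negative in HS than in Ctrl for 5 of the 22 genes (background 1.44% of all genes), which were LGR5, RNF43, AXIN2, SOX9 and SP5. With RLE size factors AXIN2 and SP5 lost this call (FDR 0.0553 and 0.0566), and with a library left out between 2 and 6 genes had it.

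Genes of DNA replication and of entry into S phase are controlled by the E2F factors. Of the 37 tested, 32 (86.5%) fell, 1 rose and 4 did not pass the test, with a median of -0.37. CDT1, which licenses replication origins, had 116, 121 and 99.6 CPM with scramble and 54.9, 57.3 and 54.9 CPM with siLonp1, with a log2 fold change of -1.01 ± 0.08 (FDR 1.58e-09). ORC1, a subunit of the origin recognition complex, had 71.0, 71.7 and 75.7 CPM and 42.1, 42.0 and 46.6 CPM, with -0.74 ± 0.06 (FDR 3.72e-10). The groups did not overlap in any of the 32 genes, but these had already passed the test, which favours separate groups. Over the whole list the groups did not overlap in 34 of 37 genes, beside 61.2% of all genes tested. Of the replicative helicase, MCM2, MCM3, MCM4, MCM5 and MCM7 fell by between 0.38 and 0.58, whereas MCM6 changed by -0.11 and did not pass the test. UHRF1, a reader of hemimethylated DNA, fell by 0.62 and E2F1 itself by 0.50. CCNE1, encoding cyclin E1, rose by 0.59. Among 32 genes of mitosis and G2/M, 11 fell and 6 rose (median -0.12; 22 and 4 with library size alone), with CCNA2 and FOXM1 at -0.53 and -0.44 and PRC1, the organiser of the spindle midzone, at 0.77.

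The promoters of the replication genes were searched for an E2F site, spelled TTTCCCGC or TTTGGCGC, on both strands of the 250 bases before the start site, a motif that was chosen after these changes were seen. It was found in 14 of 32 promoters (43.8%) and in 3.24% of the 10041 promoters of all genes that matched RefSeq (80.6% of the genes). A match is a description of the letters and not evidence of binding. The promoters of CDT1 (chr16:88803539-88803788, plus strand) and UHRF1 (chr19:4909251-4909500, plus strand), from RefSeq on GRCh38.p14, are shown as examples of replication genes that hold the motif, which is in capitals.
CDT1: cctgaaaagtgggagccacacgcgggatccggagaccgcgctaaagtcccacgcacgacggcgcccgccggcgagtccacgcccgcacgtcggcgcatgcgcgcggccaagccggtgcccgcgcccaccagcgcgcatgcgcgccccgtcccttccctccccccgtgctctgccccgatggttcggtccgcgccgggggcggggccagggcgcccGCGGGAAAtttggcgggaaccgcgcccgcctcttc
UHRF1: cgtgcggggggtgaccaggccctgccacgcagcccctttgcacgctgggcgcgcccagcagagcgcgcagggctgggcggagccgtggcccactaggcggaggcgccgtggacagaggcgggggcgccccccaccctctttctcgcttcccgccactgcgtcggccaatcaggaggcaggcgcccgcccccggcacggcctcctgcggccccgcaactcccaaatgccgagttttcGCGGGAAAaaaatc

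Actin and SRF target genes, which form stress fibres and focal contacts, mostly rose: 17 of 22 (77.3%) were higher and 2 lower, with a median of 0.45. ZYX, the focal adhesion protein zyxin, had 196, 194 and 164 CPM with scramble and 469.7, 459 and 458 CPM with siLonp1, a rise of 1.32 ± 0.08 (FDR 1.47e-11). MYL9, a regulatory light chain of myosin, rose by 1.53 and the capping protein CAPG by 1.03, and SRF, the factor itself, from 143, 147 and 128 to 231, 239 and 242 CPM. A CArG box, the binding motif of SRF, was found in 5 of 19 matched promoters of the list (26.3%) and in 1.04% of all promoters, in a search that was also chosen after the changes were seen.

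Of 25 genes of the extracellular matrix, 17 (68%) rose and 3 fell, with a median of 0.39. Besides NID1, the elastic fibre gene EFEMP2 rose by 1.64, the lysyl oxidase LOXL2 by 1.47 and the collagen chain COL6A2 by 1.49, while COL4A2, LAMC1 and EMILIN2 fell. EFEMP2 was below the CPM limit in some of the 6 HS libraries, so the limit itself can favour its rise. Without it 16 of 24 matrix genes rose and 3 fell, with a median of 0.372. Of 15 mesenchymal genes, 9 rose and 2 fell. AXL, a receptor tyrosine kinase, had 26.7, 27.5 and 23.9 CPM with scramble and 48.2, 49.1 and 48.2 CPM with siLonp1, a rise of 0.89 ± 0.08 (FDR 9.12e-09), and SERPINE2 and FN1 rose by 1.08 and 0.62. The intermediate filament gene VIM, the usual mesenchymal marker, fell by 0.55 and MMP7, a metalloprotease made by epithelial tumour cells, by 1.67. MMP7 was below the CPM limit in some of the 6 HS libraries, so the limit itself can favour its fall. Without it 9 of 14 mesenchymal genes rose and 1 fell, with a median of 0.501. The transcription factors SNAI1, SNAI2 and ZEB1 were at 0.10, 0.10 and 0.02 and did not pass the test. In TGF-beta and BMP signalling, 10 of 28 genes rose and 6 fell. The ligand TGFB1 had 44.4, 44.2 and 37.9 CPM and 83.3, 85.9 and 79.1 CPM (log2 0.97), the mediator SMAD2 rose by 0.70, and TGFBR3, the co-receptor betaglycan, fell by 0.82.

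Of 16 NF-kB targets, 11 (68.8%) rose and 2 fell, with a median of 0.53. CXCL8, the neutrophil chemokine interleukin-8, had 25.1, 23.7 and 30.5 CPM with scramble and 113, 98.3 and 95.7 CPM with siLonp1, a rise of 1.96 ± 0.11 (FDR 1.78e-12). CCL20, a chemokine of gut epithelium, rose from 14.9, 13.2 and 19.3 to 32.6, 27.8 and 28.9 CPM. TNFAIP2 rose by 1.04 and CXCL1, which is close in sequence to CXCL2 and CXCL3, by 0.87. Of 27 immediate early genes, 17 (63%) rose and 3 fell, with a median of 0.28. NR4A1, an orphan nuclear receptor, had 17.4, 20.3 and 19.1 CPM and 56.1, 63.3 and 60.6 CPM (1.67 ± 0.10), and the AP-1 member FOSL1 had 250.3, 254 and 215 CPM and 482, 515 and 492 CPM (1.05 ± 0.07). NR4A2, KLF4 and BTG2 fell, by 0.72, 0.45 and 0.36, and EGR1 was at -0.06 and did not pass the test. The DUSP phosphatases, which switch off MAP kinases, had 7 of 11 genes higher and the other 4 not past the test, with log2 fold changes from 0.02 to 1.73, and DUSP5 rose most, from 27.9, 27.8 and 27.3 to 95.9, 91.6 and 87.7 CPM (1.73 ± 0.07). An AP-1 site (TGANTCA, both strands) was found in 8.29% of the 205 matched promoters of raised genes, in 6.3% of the 127 of lowered genes and in 3.74% of all promoters.

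Metallothioneins bind zinc and copper and are induced by metals and stress. Of the 6 tested, 5 rose and 1 fell. MT2A had 142, 138 and 151 CPM with scramble and 376, 315 and 321 CPM with siLonp1, a rise of 1.23 ± 0.07 (FDR 5.77e-12), and MT1X had 29.4, 28.1 and 32.8 CPM and 65.1, 51.9 and 54.7 CPM, a rise of 0.93 ± 0.09 (FDR 9.18e-09). MT1E, MT1F and MT1G rose by 1.15, 1.15 and 0.74, and MT1A fell by 0.28. The coding sequences of the MT1 genes are close to each other, and how reads shared by several genes were counted is not given in the sources used here. The core of the metal response element (TGCACNC or TGCGCNC, both strands) was found 7 times before the start of MT2A and 4 times before that of MT1X. One match or more was found in 33.6% of all promoters, so the core letters are common, and the 2 promoters are shown for the number of matches, in capitals (MT2A, chr16:56608334-56608583; MT1X, chr16:56682220-56682469; both on the plus strand of GRCh38.p14, from RefSeq).
MT2A: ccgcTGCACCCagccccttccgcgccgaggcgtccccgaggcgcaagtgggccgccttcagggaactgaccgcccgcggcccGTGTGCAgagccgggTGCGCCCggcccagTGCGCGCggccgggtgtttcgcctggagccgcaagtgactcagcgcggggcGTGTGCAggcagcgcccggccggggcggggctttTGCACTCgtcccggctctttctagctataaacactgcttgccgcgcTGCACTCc
MT1X: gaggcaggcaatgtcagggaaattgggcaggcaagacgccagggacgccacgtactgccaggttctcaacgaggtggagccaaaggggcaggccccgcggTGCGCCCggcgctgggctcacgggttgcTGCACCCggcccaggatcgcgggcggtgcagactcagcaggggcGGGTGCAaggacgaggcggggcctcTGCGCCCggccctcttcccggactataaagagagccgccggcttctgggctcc

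Among the chaperone genes of the heat shock response, some rose and others did not pass the test. Of 20 tested HSP70, HSP110, HSP90 and small HSP genes, 10 (50%) rose, 2 fell and 8 did not pass the test, with a median of 0.22 and no gene past 2-fold. HSPH1, the HSP110 exchange factor of HSP70, had 1897, 1912 and 1837 CPM with scramble and 2918, 2844 and 2945 CPM with siLonp1, a rise of 0.63 ± 0.08 (FDR 7.02e-07). HSPA1L had 20.9, 21.5 and 19.8 CPM and 37.3, 38.8 and 38.4 CPM (0.88 ± 0.10, FDR 1.17e-07). It lies next to HSPA1A, a closely related gene, so some of its reads may belong there. HSPA8, the constitutive HSP70, rose from 6605, 6212 and 7404 to 9574, 8546 and 8955 CPM (0.42 ± 0.07), and HSP90AA1, HSPA4 and HSPA4L rose by 0.36, 0.27 and 0.39. The inducible genes HSPA1A, HSPA1B and HSPA6 were at 0.14, 0.14 and 0.21 and did not pass the test. HSPA12A and HSPB11 fell, by 0.33 and 0.37. A positive interaction with Ctrl was found for 4 of the 20 genes (background 0.481%), namely HSPA1L, HSPH1, HSPA4 and HSPA4L, of which HSPA4 lost the call with library size alone (FDR 0.0611). With 1 of the 12 HS and Ctrl libraries left out, between 2 and 4 genes had it: HSPA4 lost the call in 10 of the 12 fits and HSPA1L in 5 (FDR up to 0.141 and 0.079), whereas HSPH1 and HSPA4L kept it in all 12.

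Of 36 J-domain genes, the co-chaperones of HSP70, 18 (50%) rose and 9 (25%) fell, but 8 and 12 with library size alone, and 11 rose without HS siLonp1 replicate 1. DNAJA1 had 907, 905 and 998 CPM with scramble and 1440.1, 1287 and 1342 CPM with siLonp1 (0.53 ± 0.07, FDR 1.84e-06), and DNAJB1, DNAJB6 and DNAJC7 rose by 0.27, 0.42 and 0.37. DNAJC27 and DNAJC30, a J-domain protein of mitochondria, fell by 1.52 and 0.84. Of 22 genes of HSF1 and its cofactors, 9 rose and 7 fell (5 and 8 with library size alone): ubiquitin B (UBB) rose from 1506, 1495 and 1737 to 2377, 2152 and 2132 CPM and BAG5 by 0.41, and BAG1, an exchange factor of HSP70, fell by 0.66. In the CCT chaperonin, which folds actin and tubulin, CCT8 rose by 0.53, CCT3 fell by 0.21, and the other 6 genes did not pass the test. Of 31 proteasome subunits, 7 rose (PSMD14 by 0.27, PSMA6 by 0.24, PSMD12 by 0.21) and 4 fell (PSMD2 by 0.37), but 0 and 7 with library size alone. With HS siLonp1 replicate 1 left out, 3 subunits rose, likewise 3 without scramble replicate 1 and 3 without scramble replicate 2 of HS, and 14 without scramble replicate 3.

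A heat shock element, taken as 3 inverted units in the form GAANNTTCNNGAA or TTCNNGAANNTTC on both strands, was found in 0.269% of all promoters within 250 bases, in 2 of 18 matched promoters of the HSP list and in 0 of the 205 promoters of raised genes. The promoter of HSPA8 (chr11:123062137-123062386, minus strand of GRCh38.p14, RefSeq), 1 of the 2, is shown with its 2 matches in capitals.
HSPA8: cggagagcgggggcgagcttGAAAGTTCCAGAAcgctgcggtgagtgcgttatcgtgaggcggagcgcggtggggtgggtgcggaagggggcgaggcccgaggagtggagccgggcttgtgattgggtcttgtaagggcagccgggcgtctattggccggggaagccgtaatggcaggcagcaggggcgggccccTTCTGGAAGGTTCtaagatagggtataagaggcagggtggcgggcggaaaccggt

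In the integrated stress response, 17 of 33 genes (51.5%) rose, 2 fell and 14 did not pass the test, with a median of 0.23. ASNS, the asparagine synthetase induced by ATF4, had 115, 139 and 118 CPM with scramble and 345, 343 and 286 CPM with siLonp1, a rise of 1.39 ± 0.12 (FDR 1.77e-09). The serine synthesis genes PSPH, PSAT1 and PHGDH rose by 0.61, 0.58 and 0.43, and the mitochondrial folate gene MTHFD2 from 261, 266 and 284 to 439, 401 and 402 CPM. CBS, an enzyme of cysteine synthesis, rose by 0.9960, and ATF4 itself by 0.24. DDIT3, encoding the pro-apoptotic factor CHOP, was at -0.03 and did not pass the test, and VLDLR and ALDH18A1 fell. A C/EBP-ATF response element (TGATGNAAT) was found in 1 of 27 matched promoters of the list, that of MTHFD1L, and in 0.398% of all promoters. Of 25 genes of the ER unfolded protein response, 14 (56%) rose and 1 fell, with a median of 0.17, and 9 rose with library size alone or without HS scramble replicate 2. HYOU1 and HSPA5, chaperones of the ER, rose by 0.40 and 0.34, and DNAJB11 and DERL1 by 0.32 and 0.33.

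Among mitochondrial genes encoded in the nucleus, those of proteolysis, tRNA charging and mtDNA maintenance fell more often than they rose, and those of the respiratory chain rose more often than they fell. Of the 17 mitochondrial proteases and processing peptidases, 7 fell and 2 rose. CLPX, the unfoldase of the matrix protease CLPP, had 55.9, 55.5 and 57.0 CPM with scramble and 43.6, 41.9 and 41.8 CPM with siLonp1 (-0.40 ± 0.06, FDR 4.06e-06), and MIPEP and AFG3L2, an inner membrane protease, fell by 0.49 and 0.33. LACTB rose by 0.54. Of 12 mitochondrial chaperone genes, 3 fell, namely BCS1L by 0.45, the mitochondrial HSP90 TRAP1 by 0.40 and DNAJA3 by 0.18, and 2 rose, GRPEL2 by 0.26 among them. Of 17 mitochondrial tRNA synthetases, 10 (58.8%) fell and 2 rose, with a median of -0.20, and TARS2 had 60.9, 62.2 and 59.9 CPM and 40.5, 41.6 and 41.0 CPM (-0.57 ± 0.06). AARS2, HARS2 and EARS2 fell by 0.50, 0.44 and 0.39. In contrast, the cytosolic synthetases split into 8 that rose, with SARS, WARS and CARS at 0.57, 0.53 and 0.38, and 7 that fell, with VARS at -0.61.

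Of 20 genes of mtDNA maintenance and transcription, 9 (45%) fell and 3 rose. POLRMT, the mitochondrial RNA polymerase, had 94.7, 102 and 87.4 CPM with scramble and 65.8, 69.7 and 65.0 CPM with siLonp1 (-0.51 ± 0.07, FDR 5.28e-06). TOP3A and MGME1 fell by 0.53 and 0.33, while TOP1MT, the mitochondrial topoisomerase I, had 19.6, 21.7 and 20.6 CPM and 57.1, 60.3 and 59.99 CPM, a rise of 1.52 ± 0.07 (FDR 7.33e-14). Of the 77 mitochondrial ribosomal proteins, 15 (19.5%) rose and 19 (24.7%) fell, both below the shares of all genes, with a median of 0.01 and with MRPS6 at 0.99, MRPL48 at 0.52, MRPS18B at -0.43 and MRPL2 at -0.44. With library size alone as the scaling, 6 rose and 31 fell. Transcripts encoded by mtDNA itself were not among the listed genes.

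Of 37 nuclear genes of complex I, 14 (37.8%) rose and 1 fell, and of 38 genes of complexes II to V, 18 (47.4%) rose and 4 fell, with medians of 0.12 and 0.17. The groups did not overlap in 8 of the 14 and in 10 of the 18 genes. Over the whole lists they did not overlap in 11 of 37 and in 14 of 38, beside 61.2% of all genes tested. The sums over each list overlapped between the groups: for complex I they were 2721, 2732 and 3106 CPM with scramble and 3297, 2958 and 3002 CPM with siLonp1, and for complexes II to V 6565, 6530 and 7671 CPM and 8165, 7219 and 7281 CPM. HS scramble replicate 3 thus lay above siLonp1 replicates 2 and 3, and siLonp1 replicate 1 was the highest. Without HS siLonp1 replicate 1, 9 and 9 genes rose, without HS scramble replicate 1, 9 and 10, and without HS scramble replicate 2, 9 and 11. NDUFA5, a subunit of complex I, had 25.9, 25.3 and 31.8 CPM with scramble and 52.6, 47.8 and 52.9 CPM with siLonp1, a rise of 0.89 ± 0.09 (FDR 1.45e-08). NDUFB3, NDUFA11 and NDUFA1 rose by 0.37, 0.48 and 0.39, and COX6A1, ATP5G2 and ATP5E by 0.45, 0.34 and 0.45. SDHA, the flavoprotein of complex II, fell from 416, 407 and 411 to 318, 322 and 329 CPM. With library size alone, 8 genes of complex I rose and 5 fell, and 9 and 4 of the other complexes. In the TCA cycle 5 of 18 genes rose, with SUCLG1, IDH3A and CS at 0.77, 0.64 and 0.40, and 4 fell. In mitochondrial import 7 of 26 genes rose (4 with library size alone, 11 without HS scramble replicate 3), with TIMM17B at 0.81 and TOMM34 at 0.29, and 5 fell (7 with library size alone, 3 without HS siLonp1 replicate 3), with SAMM50 at -0.29 and TIMM44 at -0.27. Of 18 genes of mitochondrial dynamics and mitophagy, 7 rose, among them PINK1 by 0.48, MTFP1 by 0.52, CALCOCO2 by 0.39 and BNIP3L by 0.40, and 4 fell.

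Of 81 cytosolic ribosomal protein genes, 56 (69.1%) rose and 2 fell, with a median of 0.25. RPL41, for example, had 708, 676 and 855 CPM with scramble and 1151, 999 and 1036 CPM with siLonp1 (0.51 ± 0.09, FDR 5.21e-05). The 2 that fell were RPL22L1 and RPL7L1, paralogs of ribosomal proteins. The groups did not overlap in 38 of the 56 genes and in 44 of all 81, beside 61.2% of all genes tested. The 81 genes summed to 66901, 66736 and 77500 CPM with scramble and to 89626, 80872 and 80615 CPM with siLonp1. The sums did not overlap, though HS scramble replicate 3 was nearest to the siLonp1 libraries, and HS siLonp1 replicate 1 was the highest. Without HS siLonp1 replicate 1, 38 genes rose, without HS scramble replicate 1, 39, and with library size alone, 32. Among genes outside the list, short ones lay slightly higher: the median log2 fold change was 0.12 for 344 genes whose longest GENCODE transcript is under 1000 bases, 0.06 for 1471 genes in the next class of length, in which the median ribosomal protein transcript of 1915 bases falls, and -0.01 for 1178 genes with 8000 bases and over. In Ctrl these medians were -0.01, 0 and 0.02. After trends with transcript length and GC content were removed, 53 of the 81 genes rose and 6 fell. RPPH1 and RMRP were high in the same siLonp1 libraries, and their part in this rise was not tested.

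Of 22 genes of glycolysis, 11 (50%) rose and 3 fell, with a median of 0.13 and with the glucose transporter gene SLC2A3 at 399.6, 376 and 379 CPM with scramble and 666, 685 and 677 CPM with siLonp1 (0.81 ± 0.06). ENO2, HK1 and ALDOC rose by 0.73, 0.60 and 1.06. Of 24 genes of cholesterol synthesis and SREBP2, 10 (41.7%) fell and 5 rose, with a median of -0.13: INSIG1, the sterol sensor that retains SREBP in the ER, had 64.1, 59.8 and 71.7 CPM and 31.4, 30.9 and 35.0 CPM (-1.01 ± 0.09), MVK and SQLE fell by 0.65 and 0.43, and STARD4 rose by 0.64. Of 23 NRF2 targets of the oxidative stress response, 8 (34.8%) fell and 3 rose, with a median of -0.04, and NQO1, the quinone reductase, had 508, 477 and 518 CPM and 389.9, 355 and 361 CPM (-0.44 ± 0.05). FTL, ABCC2 and TKT fell by 0.44, 0.52 and 0.36.

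**Figure D3:**
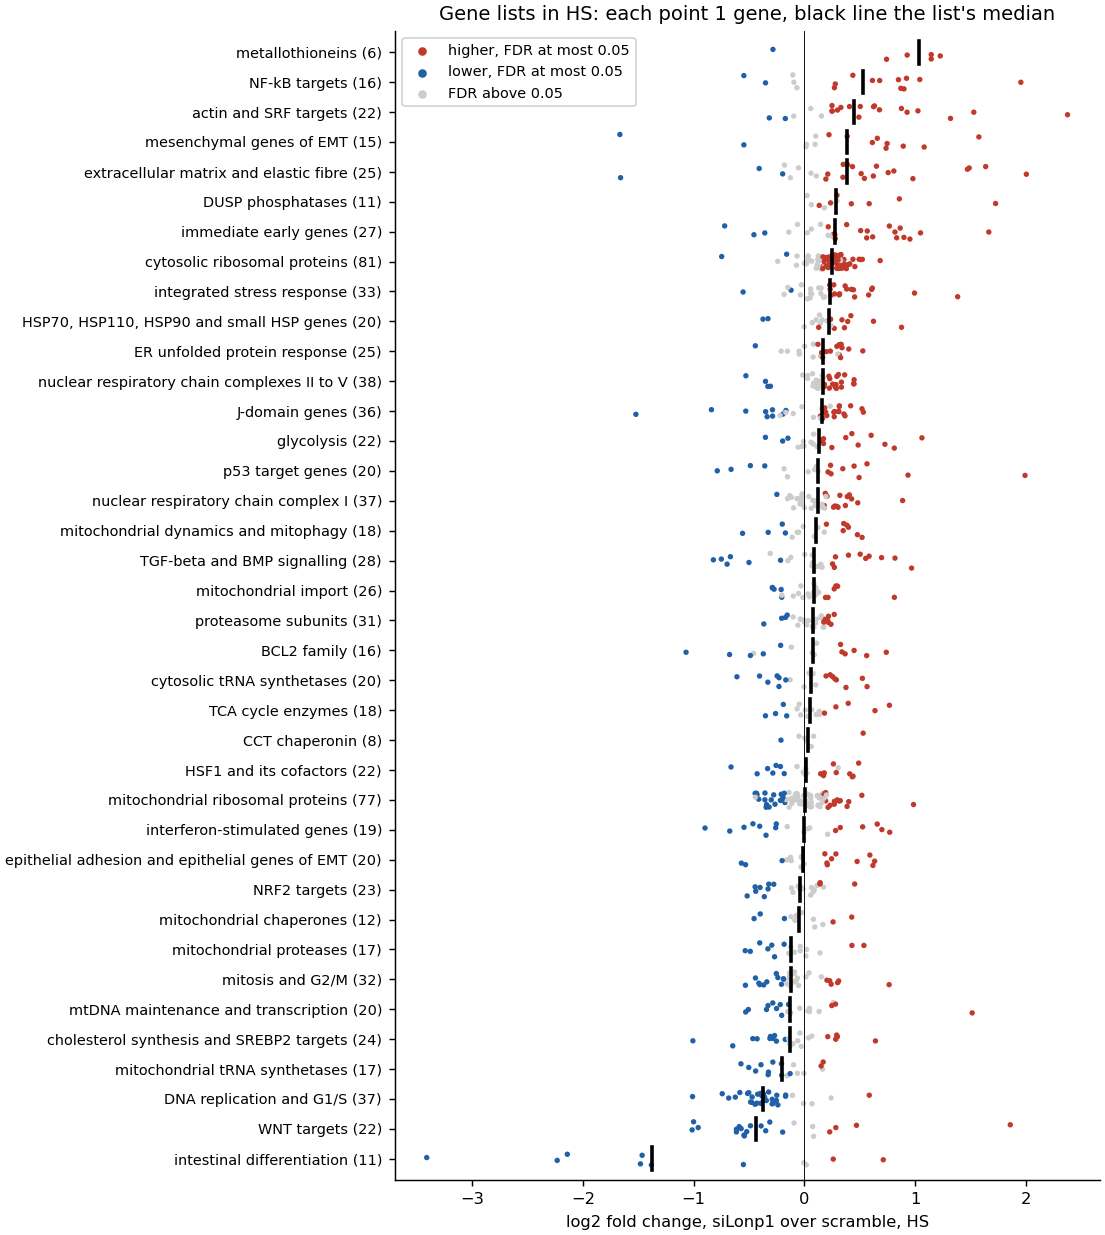
Log2 fold change of siLonp1 over scramble in HS (x axis) for each tested gene of 38 lists (y axis, number of genes in brackets), in red where higher, blue where lower and grey where the FDR was above 0.05, with a black line at the list's median. The lists are in order of their medians, from intestinal differentiation (-1.38) to metallothioneins (1.04), and most medians lie within 0.5 of 0. Over the 7 intestinal genes above the CPM limit in all 6 HS libraries the median was -0.004.

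The effect of siLonp1 in HS was compared with that at 37 °C and after recovery, which were measured in other libraries. In Ctrl, 303 genes (2.43%) were raised and 163 (1.31%) lowered, and in HS+REC 323 (2.59%) and 148 (1.19%). Of the 295 genes raised in HS, 285 were higher in Ctrl at any fold (background 26.6%) and 288 in HS+REC (26.9%), with median log2 fold changes of 1.28 in HS and 1.19 in Ctrl. Of the 178 lowered genes, 171 were lower in Ctrl (23%) and 164 in HS+REC (27.6%), with medians of -1.26 in HS and -1.10 in Ctrl. Of the 473 genes, 0 moved in the opposite direction in Ctrl by edgeR's test, also at an unadjusted p under 0.05. The members were named for their size in HS, so the smaller medians elsewhere are no comparison of strength.

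**Figure D4:**
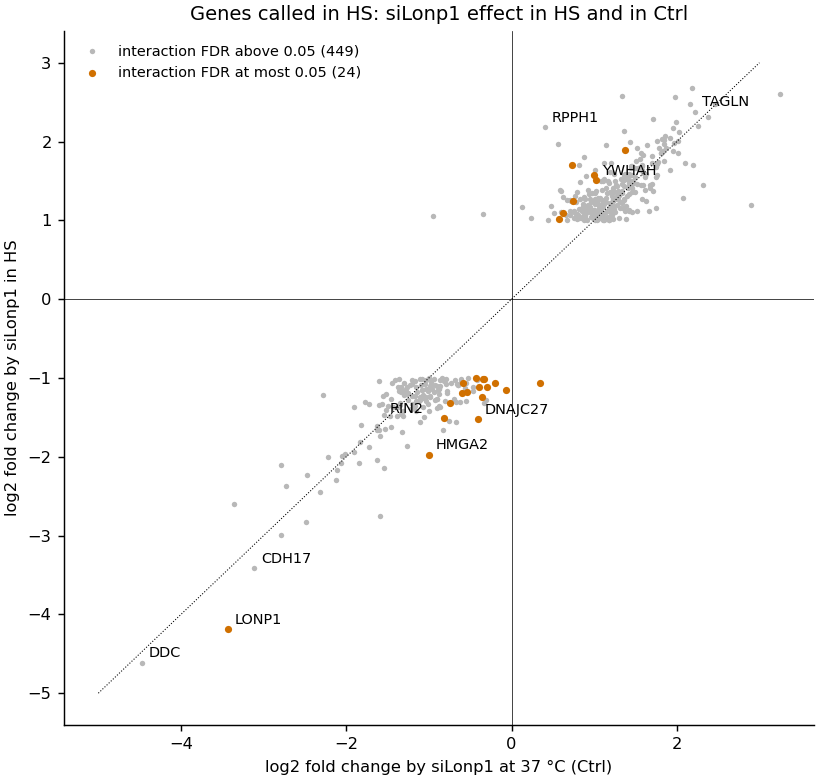
Log2 fold change by siLonp1 in HS (y axis) against that in Ctrl (x axis) for the 473 genes raised or lowered in HS, with the 24 whose interaction had an FDR of at most 0.05 in orange, and equal effects on the dotted line. The orange points lie on the side of a larger effect in HS, LONP1 and HMGA2 among them, while DDC, CDH17 and TAGLN lie near the line. The genes were chosen by their size in HS, which favours that side in advance.

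The test of that difference is the interaction of siLonp1 and HS, which passed an FDR of 0.05 for 239 genes (1.92%), 60 of them positive (0.481%) and 179 negative (1.44%), and 1918 genes had an unadjusted p under 0.05. It passed for 24 of the 473 genes called in HS, of which 7 were raised with a positive and 17 lowered with a negative interaction. The 473 were chosen by their size in HS, which favours these directions in advance. The count of 239 rested on single libraries: it was 97 without HS scramble replicate 1 and 524 without HS scramble replicate 3. The smallest p among the negative ones belonged to ZNF367, a zinc finger gene, which with scramble had between 32.6 and 34.7 CPM in Ctrl and between 44.6 and 50.2 CPM in HS, and with siLonp1 between 41.4 and 41.6 CPM in Ctrl and between 23.7 and 26.2 CPM in HS. It thus lay above the scramble libraries in Ctrl and below them in HS, with an interaction of -1.24 ± 0.10 (FDR 3.4e-07). CDC25A, the phosphatase that starts S phase, had between 92.5 and 99.1 CPM in Ctrl siLonp1 and between 43.8 and 47.7 CPM in HS siLonp1, against between 110.3 and 113 CPM and between 92.8 and 97.4 CPM with scramble, an interaction of -0.86 ± 0.10 (FDR 2.04e-05). HMGA2 had -0.97 ± 0.11 and STARD13, a GTPase-activating protein, -0.9989 ± 0.13.

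Of the positive ones, HSPH1 had between 266 and 285 CPM in Ctrl scramble and between 246 and 265 CPM in Ctrl siLonp1, so the rise of 0.63 in HS was set against -0.13 in Ctrl, an interaction of 0.75 ± 0.11 (FDR 0.000585). YWHAH, a 14-3-3 protein, rose in both conditions, by 1.51 in HS and 1.02 in Ctrl (0.48 ± 0.07), and SURF4, a cargo receptor of the ER, by 0.95 and 0.41 (0.54 ± 0.08). HERPUD1, a gene of ER-associated degradation, was lower with siLonp1 in Ctrl, at -0.79, and did not pass the test in HS, at -0.05 (0.75 ± 0.11). ANKRD10 rose in HS by 0.58 and was at -0.12 in Ctrl (0.70 ± 0.10).

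By lists, negative interactions were found for 5 of 37 replication genes, namely ORC1, CDT1, UHRF1, CDC6 and FEN1, for the 5 WNT targets above and for 4 of 27 immediate early genes (FOSL2, ZFP36, EGR1 and KLF6). With RLE size factors UHRF1 and FEN1 lost the call (FDR 0.0577 and 0.056). Without HS scramble replicate 1 the 3 lists had 2, 2 and 1 such genes, and without HS scramble replicate 3 they had 6, 6 and 5. FOSL2, ZFP36, EGR1 and KLF6 had siLonp1 effects of 0.22, -0.14, -0.06 and 0.03 in HS. Their effects in Ctrl were 0.72, 0.34, 0.54 and 0.69. Positive interactions were found for 5 of 33 genes of the integrated stress response (between 3 and 5 with a library left out, 7 by DESeq2 and by the likelihood ratio test, 9 with trends of length and GC content removed and 10 with no filter on low counts), with SESN2, NUPR1 and CHAC1 at 0.84 ± 0.16, 1.02 ± 0.23 and 1.08 ± 0.20, ATF4 at 0.48 ± 0.07 and PSPH at 0.39 ± 0.09. The siLonp1 effects of SESN2, NUPR1, CHAC1 and ATF4 were -0.18, 0.13, 0.44 and 0.24 in HS and -1.02, -0.89, -0.64 and -0.23 in Ctrl. PSPH was at 0.61 in HS and at 0.22 in Ctrl. Of the 81 ribosomal protein genes, 56 rose in HS and 2 in Ctrl, but 0 had an interaction at this FDR by edgeR's quasi-likelihood test. The count was 3 by DESeq2 and by the likelihood ratio test, 6 with trends of length and GC content removed, 7 with no filter on low counts and 15 without HS scramble replicate 3, all of them positive. At an unadjusted p under 0.05, 33 were positive and 0 negative, beside 15.4% of all genes in either direction, and this count rested on single libraries: it was 13 without HS scramble replicate 2, 13 without HS siLonp1 replicate 1, 14 without HS scramble replicate 1, 19 without Ctrl scramble replicate 2 and 55 without HS scramble replicate 3. Genes of intestinal differentiation, metallothioneins, NF-kB targets and extracellular matrix also had 0 interactions, with 1, 3, 3 and 2 at an unadjusted p under 0.05 and 1, 1, 0 and 0 by DESeq2, and their medians in Ctrl were -0.90, 0.67, 0.58 and 0.42, against -1.38, 1.04, 0.53 and 0.39 in HS. With HS+REC, the interaction passed for 175 genes (1.4%, of which 0.297% of all genes positive and 1.11% negative) and for 20 of the 473.

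**Figure D5:**
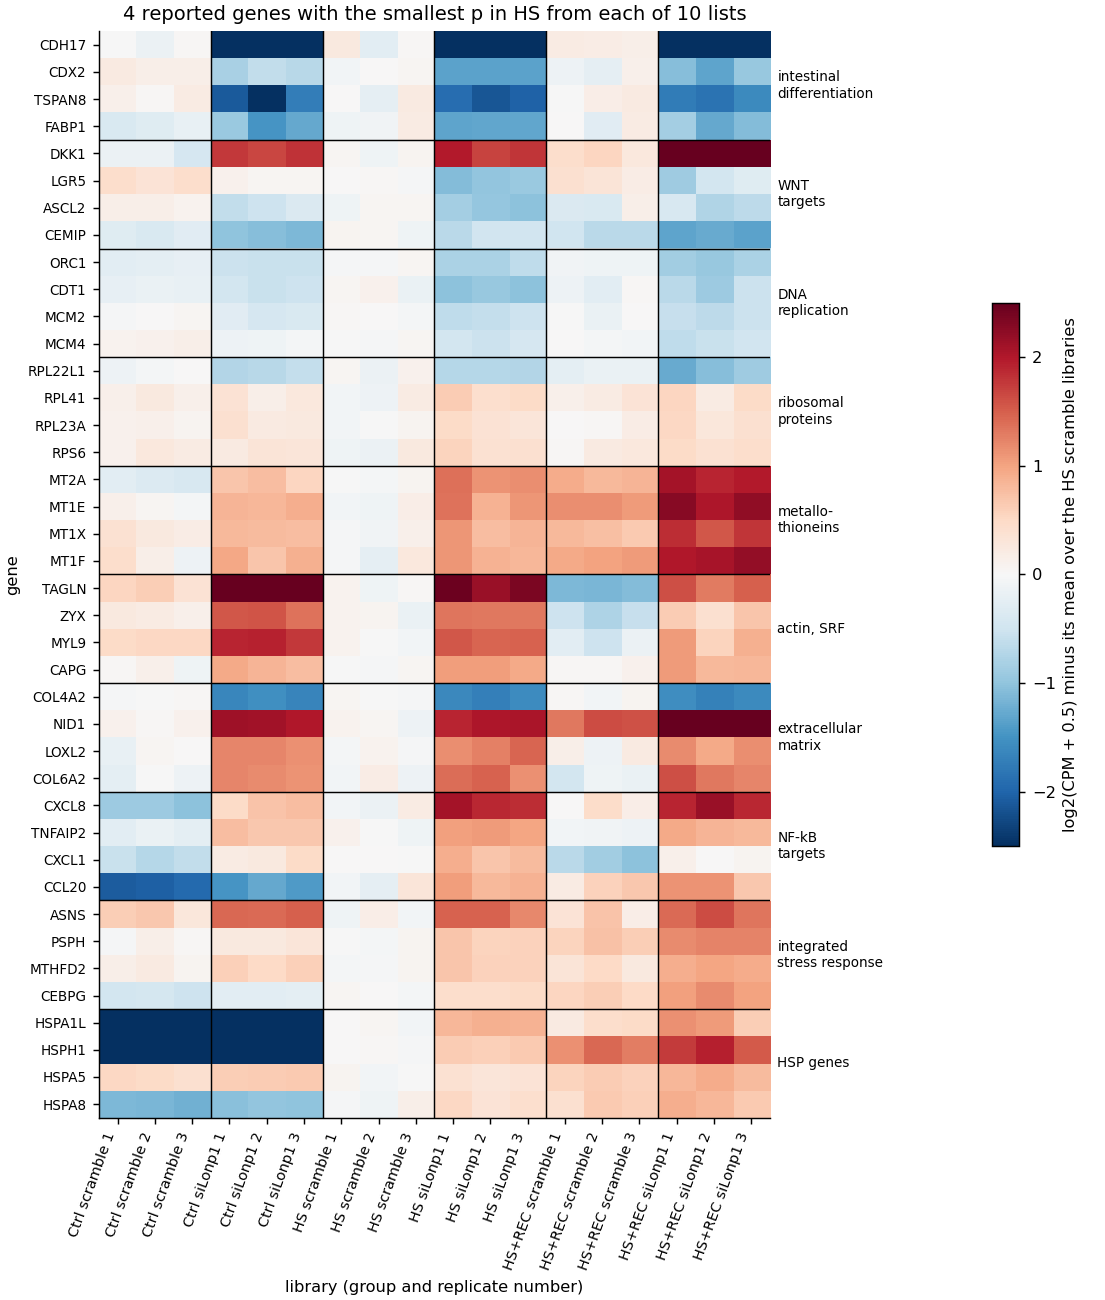
Log2(CPM + 0.5) minus its mean over the 3 HS scramble libraries, for the 4 genes reported here with the smallest p in HS from each of 10 lists (rows) in the 18 libraries (columns, by group and replicate), with red above and blue below. In each condition CDH17 and COL4A2 are lower and NID1 is higher with siLonp1 than with scramble, while HSPH1 and HSPA1L are low in the 6 Ctrl libraries of both siRNAs.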

How the data were processed

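Gene counts of the 6 HS libraries were analysed together with the other 12 libraries of the series. According to the methods and the submitters' processing notes, the authors prepared stranded libraries (of mRNA in the methods, of mRNA and total RNA in the labels), aligned paired reads to hg38 with STAR 2.7.3a, counted them with featureCounts and used R 3.6.3 and edgeR. The deposited values are raw counts per gene, without normalization. How strand and reads of several genes were handled is not given in the sources used here. Columns were matched to samples by their names, and 0 columns belonged to no sample. Library totals ran from 30815860 to 47279297 counts. The replicates are described as independent biological replicates, and replicates within a group differed by more than counting error.

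The tests were made in R 4.3.3 by the quasi-likelihood method of edgeR 4.0.16 (TMM, prior count 0.125) in 1 model of 6 group means over 18 libraries with 12 residual degrees of freedom. P-values were adjusted by Benjamini-Hochberg over 12832 genes, those above 1 CPM in 3 libraries or more. CPM values are TMM-scaled, errors of log2 fold changes are SE, and other errors are SD over the 3 libraries. Genes "rose" or "fell" at an FDR of at most 0.05 and were "raised" or "lowered" where the fold change also exceeded 2. On counts simulated for the HS contrast (12832 genes), 98% of genes changed 2-fold and 58% of those changed 1.25-fold were recovered, with 5 false calls, and for the interaction with Ctrl 96% and 24%, with 3 false calls.

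The genes compared and the lists, written by hand, were chosen with earlier results of these data known. Genes were named by rule: LONP1, HSF1, the 15 largest rises and falls with a mean of at least 1 CPM in both groups and without overlap, 5 in each direction whose lower group was under 1 CPM, up to 4 genes of each list by p, members that differ from their list, and the 5 smallest p in each direction of the interaction with Ctrl. The genes AXIN2, RNF43, ZNRF3, SOX9, SP5, LEF1, HSP90AA1, HSPA4, HSPA4L, the inducible HSPA1A, HSPA1B and HSPA6, DNAJB1, DNAJB6, FN1, EFEMP2, PSAT1, PHGDH, CBS, ATF4, MT1G, HNF4A, CEACAM5, CEACAM6, the other MCM genes, UHRF1, E2F1, CDC6, FEN1, SESN2, NUPR1, CHAC1, FOSL2, ZFP36, EGR1, KLF6, BST2, IFIT3, IFIH1, MX1, MTHFD1L, DDIT3 and the transcription factors of the mesenchymal list were named after their values were seen. Promoters came from RefSeq (GRCh38.p14) and transcript lengths from GENCODE. Alternatives were RLE size factors, library size alone, no filter, CPM above 1 in the 6 HS libraries, DESeq2 1.42.0, the likelihood ratio test, the 6 HS libraries alone, a replicate block, FDR 0.01 and each library left out, and, chosen after seeing the data, removal of trends with length and GC content (92.8% of the genes had both). Some genes that the rule names are not reported here. The study's own fold changes and gene sets were not used.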

Additional observations from a re-analysis of the deposited data

Results flagged for a closer look

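In 40 of the genes named here the effect of siLonp1 differed between HS and Ctrl by the test of the interaction, and the values below are that interaction on the log2 scale, HS minus Ctrl. Among chaperones, it was 0.75 for HSPH1, 1.14 for HSPA1L and 0.46 for DNAJA1, none of which passed the test in Ctrl, and -1.11 for DNAJC27, which fell in both. Other positive values were 0.54 for SURF4, 0.70 for ANKRD10, 0.75 for HERPUD1, 0.48 for YWHAH, 0.39 for PSPH and 0.76 for TGFBR3, where TGFBR3 fell by 0.82 in HS and by 1.58 in Ctrl. Among genes of the cell cycle it was -0.86 for CDC25A, -0.68 for CDT1 and -0.43 for ORC1, with siLonp1 effects of -1.06, -1.01 and -0.74 in HS and of -0.20, -0.33 and -0.31 in Ctrl. ZNF367, with -1.24, and STARD13, with -0.9989, rose in Ctrl and fell in HS. IRF1, an interferon-induced factor, had -0.56, with -0.54 in HS and 0.01 in Ctrl. LONP1 had -0.76, HMGA2 -0.97, RIN2 -0.69, the pro-apoptotic BCL2L11 -0.48 and LGR5 -0.67, all lower in both conditions and further in HS. The phosphatase gene DUSP4 had -0.32 and rose in both, by 0.43 in HS and 0.74 in Ctrl. Among genes named after their values were seen, it was positive for HSPA4 (0.31), HSPA4L (0.65) and DNAJB6 (0.47), and in the integrated stress response for SESN2 (0.84), CHAC1 (1.08), NUPR1 (1.02) and ATF4 (0.48). SESN2, CHAC1, NUPR1 and ATF4 had siLonp1 effects of -0.18, 0.44, 0.13 and 0.24 in HS. Their effects in Ctrl were -1.02, -0.64, -0.89 and -0.23. The interaction was negative for the WNT targets AXIN2 (-0.49), RNF43 (-0.56), SOX9 (-0.79) and SP5 (-0.62), for the replication genes UHRF1 (-0.46), CDC6 (-0.36) and FEN1 (-0.32), and for the immediate early genes FOSL2 (-0.50), ZFP36 (-0.48), EGR1 (-0.60) and KLF6 (-0.67). These immediate early genes were at 0.22, -0.14, -0.06 and 0.03 in HS and at 0.72, 0.34, 0.54 and 0.69 in Ctrl. With 1 of the 12 libraries left out in turn, 24 of the 40 genes kept the interaction call in every fit and 16 lost it in some. AXIN2, SP5 and FEN1 lost it in 11 of the 12 fits (FDR up to 0.155), UHRF1 and HSPA4 in 10, FOSL2 and DUSP4 in 9, EGR1 and BCL2L11 in 8, DNAJA1 and RNF43 in 6, HSPA1L, PSPH, NUPR1 and ZFP36 in 5, and CDC6 in 1. Groups of 3 libraries were not tested for single outlying samples.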

How the results depend on the processing

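The counts of raised and lowered genes (295 and 178) became 559 and 385 without a filter on low counts, and lowered genes became 117 with CPM above 1 in the 6 HS libraries, where fewer genes could be tested. The interaction with Ctrl (239 genes) became 497 without a filter, 440 with DESeq2, 461 with the likelihood ratio test and 676 with trends of length and GC content removed. That with HS+REC (175 genes) became 368, 295, 322 and 514. The cause was not tested. The other settings that were run for each left these counts within 1.5 times, and the interactions were not computed at FDR 0.01 or from the 6 HS libraries alone.

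With each library left out in turn, raised genes ranged from 287 to 309, lowered genes from 165 to 198, genes higher at any fold from 3064 to 3431, genes lower from 2965 to 3356, and the LONP1 change from -4.26 to -4.15. The interaction with Ctrl ranged from 97 to 524 and that with HS+REC from 85 to 306. The first moved by over 1.5 times without any of HS scramble replicates 1 to 3, HS siLonp1 replicates 1 and 3, Ctrl scramble replicates 1 to 3 or Ctrl siLonp1 replicates 1 and 2, and the second without any of HS scramble replicates 1 to 3, HS siLonp1 replicate 1 or HS+REC scramble replicate 3.

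Same-numbered HS libraries did not deviate together (correlations of -0.315, 0.338 and -0.247), so the numbers were not taken to pair them. Some libraries of unlike number did: scramble replicate 3 and siLonp1 replicate 1 had a correlation of 0.514 in HS and of 0.635 in HS+REC. A block by replicate number does not account for this, and a model with such pairs was not run. With the replicate block, 295 genes were raised and 177 lowered, 3483 and 3296 at any fold, LONP1 was at -4.19, and the interactions passed for 179 and 139 genes. Of 1697 values of named genes under other settings 1692 kept their direction and call and 0 reversed, and 1137 of 1140 with a library left out. Most of these genes were named for a large change or a small p in the same counts, which favours such stability in advance. Among list genes named for an interaction with Ctrl, AXIN2, SP5, UHRF1, FEN1 and HSPA4 lost it with the block, which left 3 WNT targets, 3 replication genes and 3 HSP genes. Of 684 counts over lists, 57 moved by over 1.5 times, and 64 of 456 with a library left out, those of the respiratory chain and the proteasome among them. The intestinal genes that fell were 3 in place of 7 where CPM above 1 in the 6 HS libraries was required.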

Other observations

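Genes of cell death and of interferon signalling, which the comparisons above leave out, moved in both directions in HS. Of 16 genes of the BCL2 family, 6 rose and 5 fell. The anti-apoptotic BCL2L1 had 498, 497 and 479 CPM with scramble and 836, 815 and 812 CPM with siLonp1, a rise of 0.74 ± 0.05 on the log2 scale (FDR 1.88e-10), and MCL1 rose by 0.56 ± 0.07. BCL2L11, encoding the pro-apoptotic BIM, had 30.7, 32.7 and 27.8 CPM and 13.0, 16.2 and 14.4 CPM, a change of -1.07 ± 0.08 (FDR 1.38e-10), while PMAIP1, encoding the pro-apoptotic NOXA, rose by 0.45. These are the 4 members with the smallest p, and other anti-apoptotic and pro-apoptotic members are not reported here. Over the 16 genes the median was 0.08, and 5 did not pass the test. Of 20 p53 target genes, 9 rose and 4 fell, with the kinase gene PLK2 at 113, 112 and 117 CPM and 219.6, 222 and 213 CPM (0.94 ± 0.06), TIGAR at 0.50 and the repair gene XPC at -0.66. SW620 cells are known to carry mutant p53.

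Of 19 interferon-stimulated genes, 6 rose and 8 fell, with a median of 0.00. IFITM3, a restriction factor of virus entry, had 28.4, 29.9 and 29.8 CPM with scramble and 52.9, 50.2 and 47.4 CPM with siLonp1 (0.77 ± 0.08), and the ubiquitin-like ISG15 and the membrane protein BST2 rose by 0.66 and 0.70. OAS3, which makes the activator of RNase L, had 54.0, 52.5 and 46.9 CPM and 28.0, 34.3 and 34.0 CPM (-0.67 ± 0.08), and IFIT3, IFIH1 and MX1 fell by 0.90, 0.40 and 0.35. IFIT3 was below the CPM limit in some of the 6 HS libraries, so the limit itself can favour its fall. Among the other 18 genes 6 rose and 7 fell. The list therefore did not move one way.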
